A study of Mus musculus with 6 samples.

Results

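The genes described here are 10 genes of the smooth muscle contractile apparatus that myofibroblasts also use, read in cultured mouse cardiac fibroblasts with and without PDGF-DD: Acta2, Actg2, Tagln, Cnn1, Myh11, Myl9, Mylk, Lmod1, Smtn and Tpm2. They were taken by gene symbol, and each has 1 row among the 18059 genes of the tables. The cells were primary fibroblasts, the connective tissue cells that make the matrix of the heart, isolated from hearts of C57BL/6 mice aged 1 to 2 weeks and grown with 15% serum. They received saline (control, 3 libraries) or PDGF-DD (3 libraries) for 12 hours, at a dose that the labels give as 20 µM. PDGF-DD is the dimeric growth factor made from PDGF-D chains, and it signals mainly through the receptor PDGFRβ. The protocols describe cells from global PDGF-D knockout mice in both groups, whereas the genotype field gives control for the saline samples and PDGF-D -/- for the PDGF-DD samples, so that genotype and treatment may differ together. Reads of Pdgfd were present in both groups, 5.08 ± 0.68 CPM (SD, n = 3) in control libraries against 3.47 ± 0.31 CPM (SD, n = 3) after PDGF-DD, and a count over a whole gene does not check an edited part of it.

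Smooth muscle cells shorten when calcium and calmodulin activate myosin light chain kinase (encoded by Mylk), which phosphorylates the regulatory light chain (Myl9) on the smooth muscle myosin heavy chain (Myh11). That myosin pulls on filaments of smooth muscle actin (Acta2 and Actg2), which tropomyosin (Tpm2), calponin (Cnn1), transgelin (Tagln), smoothelin (Smtn) and leiomodin (Lmod1) cover, stabilise or help to assemble. A fibroblast that gains this apparatus, above all stress fibres with the actin of Acta2, is called a myofibroblast, the cell that contracts scars and stiffens the injured heart. Many of these genes are driven by serum response factor (SRF) with its partners myocardin and the MRTF proteins at a DNA element named the CArG box, and PDGF is known to lower them in cultured vascular smooth muscle cells.

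Library depth was nearly equal, between 21221114 and 21371829 estimated counts, so counting error is small for all but the lowest of these genes, whose smallest count was 221 (Myh11). Control replicate 1 stood apart from the other controls, at a chi-square over its degrees of freedom of 5.11 and 5.71, where the other control pair gave 2.48 and pairs of PDGF-DD libraries gave 1.9 to 2.74. Whether libraries of one group are separate cultures or mice is not in the labels, and the p-values therefore reflect no more than library-to-library spread, possibly technical. The fibroblast label was checked against its markers, which were all present: the 10 genes of that marker list summed to 20109 to 22055 TPM in control and 18530 to 18841 TPM with PDGF-DD, with Col1a1 the most abundant. Of these 10 genes, 6 were lower with PDGF-DD (60%, beside 17.4% of all tested genes) and 1, Pdgfra, was higher (10%, beside 19.1%). TPM is a level scaled for transcript length as well as depth, so it can be compared between genes. CPM is a count scaled for depth only and is used for changes of one gene.

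The upstream sequences of a few members are shown because SRF acts on this set of genes through a short motif that can be read directly. Of the 10 members, 7 had a promoter window in the RefSeq table of build GRCm38.p6, from 250 bases before to 50 bases after the annotated start. Actg2, Tagln and Myh11 had none. The CArG box has 10 letters, a pair of C, a core of 6 letters that are each A or T, and a pair of G, and it reads the same on both strands in these terms. A CArG-like box is defined here as the same motif with exactly 1 C or G in the core. The 250 bases before the start are printed 5′ to 3′ on the strand of the gene, with CArG and CArG-like boxes in capitals: Acta2 (chr19:34255374-34255623, minus strand), Myl9 (chr2:156775214-156775463, plus strand), Mylk (chr16:34784700-34784949, plus strand) and Smtn (chr11:3539293-3539542, minus strand).
Acta2 upstream: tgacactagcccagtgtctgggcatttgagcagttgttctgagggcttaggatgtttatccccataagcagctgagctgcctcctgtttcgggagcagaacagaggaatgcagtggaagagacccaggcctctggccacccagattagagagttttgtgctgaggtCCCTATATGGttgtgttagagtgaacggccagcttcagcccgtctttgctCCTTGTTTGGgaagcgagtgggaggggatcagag
Myl9 upstream: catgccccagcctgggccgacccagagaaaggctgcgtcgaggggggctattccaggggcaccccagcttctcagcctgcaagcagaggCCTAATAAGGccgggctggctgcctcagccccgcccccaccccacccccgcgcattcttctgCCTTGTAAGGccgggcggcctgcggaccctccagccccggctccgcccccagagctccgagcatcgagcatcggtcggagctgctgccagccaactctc
Mylk upstream: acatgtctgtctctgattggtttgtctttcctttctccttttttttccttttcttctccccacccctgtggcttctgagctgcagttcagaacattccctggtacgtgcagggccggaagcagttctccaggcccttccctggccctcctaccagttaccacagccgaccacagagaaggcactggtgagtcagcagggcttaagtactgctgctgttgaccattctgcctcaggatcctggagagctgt
Smtn upstream: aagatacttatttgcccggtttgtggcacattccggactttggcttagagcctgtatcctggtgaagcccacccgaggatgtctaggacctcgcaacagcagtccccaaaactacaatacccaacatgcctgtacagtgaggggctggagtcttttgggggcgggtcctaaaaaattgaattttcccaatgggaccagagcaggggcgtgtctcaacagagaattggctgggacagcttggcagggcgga
The Myl9 window held a CArG box starting 161 bases before the start and a CArG-like box starting 99 bases before it. The Acta2 window held 2 CArG-like boxes, CCCTATATGG and CCTTGTTTGG, starting 84 and 34 bases before the start. The other 5 windows (Cnn1, Mylk, Lmod1, Smtn and Tpm2) held neither form, which says only that these letters are not in these 300 bases. Among all 32851 windows of the table, 1.63% held a CArG box and 9.98% held either form. The motif CATTCC, a binding site of TEAD factors, was found on either strand in 4 of the 7 windows and in 14.7% of all windows. The motif CAGAC, a SMAD site, was found on either strand in 4 of the 7 windows and in 49.6% of all windows. Matches of any kind describe letters and not bound sites.

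Of the 10 members, 9 were lower with PDGF-DD than in control and none was higher (edgeR, quasi-likelihood F test over 13270 genes, adjusted p by Benjamini-Hochberg under 0.05). The same rule called 17.4% of all tested genes lower and 19.1% higher. The 9 ranges of CPM did not overlap between the groups, against 23.5% of tested genes that were lower without overlap and 47.1% without overlap in either direction. The log2 change is the log2 of the level with PDGF-DD over that in control, and its median over the members was -0.41, beside -0.01 for all tested genes. Smtn was the member that did not pass. The falls spanned a wide range, from 10.6% for Tagln to 50.9% for Myh11. In bulk RNA, fewer cells that express a gene and less RNA of it per cell cannot be told apart. The exact permutation test gave p = 0.1 for each of the 9 genes, two-sided, which is the smallest value 3 against 3 libraries can give.

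**Figure D1:**
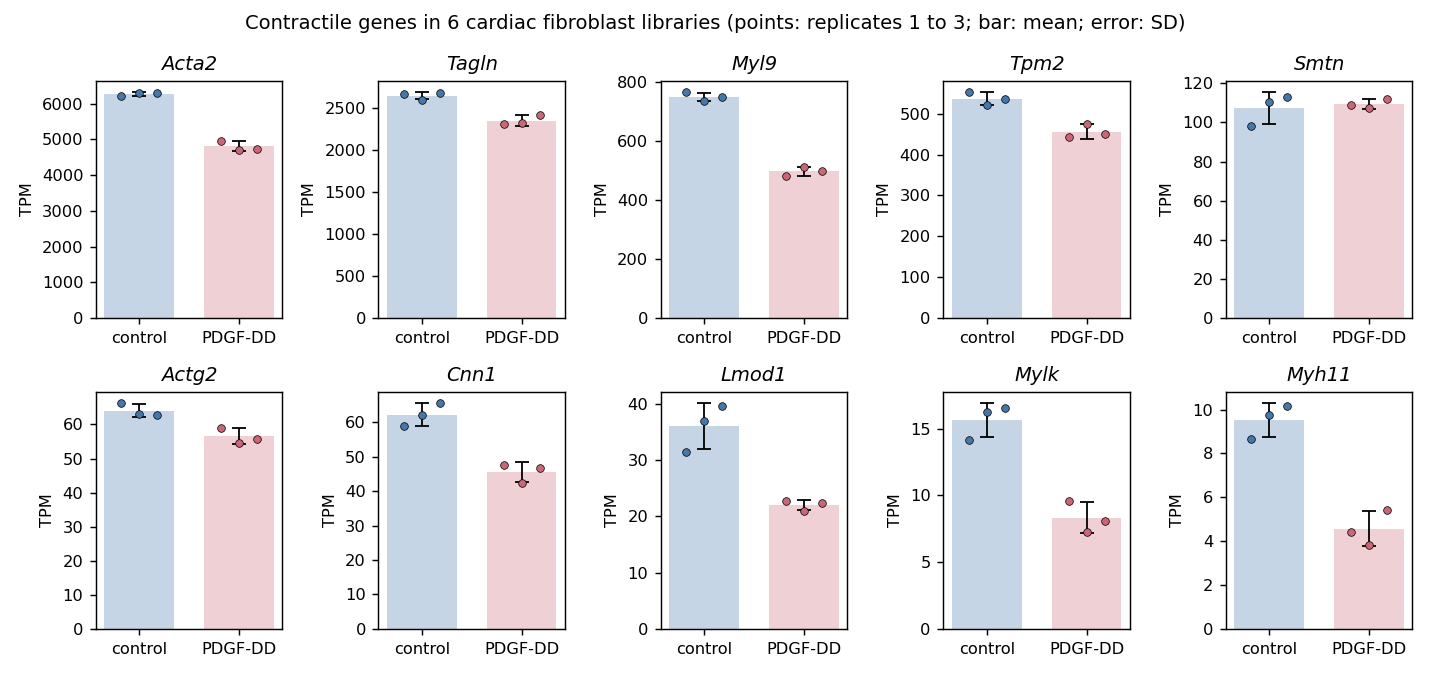
TPM (vertical axes, linear, each from 0) of the 10 contractile genes in the 3 control (blue) and 3 PDGF-DD (red) libraries, ordered by control level; points are libraries in the order of their numbers, bars means and error bars SD. In 9 panels every red point lies below every blue point, and in the Smtn panel the points overlap.

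The actin genes come first, as the filament on which the apparatus is built. Acta2, which encodes smooth muscle alpha-actin, the defining protein of myofibroblasts, stood at 6202, 6291 and 6300 TPM in the control libraries and at 4969, 4708 and 4746 TPM with PDGF-DD. It was among the most abundant transcripts of the control cells, ranking from the 4th to the 6th place of all genes by TPM, and from the 12th to the 13th with PDGF-DD. All PDGF-DD libraries lay well below the controls. In CPM it fell from 5327 ± 209 to 4108 ± 101 (SD, n = 3 each; log2 change -0.38, SE 0.04, edgeR adjusted p = 5.4e-09). Actg2, smooth muscle gamma-actin, is typical of gut and bladder muscle and was far lower here. Its TPM were 66.3, 63.1 and 62.8 in control and 59.1, 54.6 and 55.8 with PDGF-DD. The groups were separate but close, with a log2 change of -0.17 (SE 0.06, edgeR adjusted p = 0.0222). This call was lost in DESeq2 (adjusted p = 0.0724) and on leaving out control replicate 1 (0.122) or, of the PDGF-DD libraries, replicate 2 (0.0923) or replicate 3 (0.104), while the lowest adjusted p of any alternative was 0.0114.

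Myh11 and Mylk, the motor and its kinase, had the most negative changes of the set. Myh11, the myosin heavy chain that marks mature smooth muscle, was the least abundant member, at 8.67, 9.76 and 10.2 TPM in control and 4.43, 3.84 and 5.43 TPM with PDGF-DD. The highest PDGF-DD library stayed below the lowest control. Its log2 change of -1.03 (SE 0.08, edgeR adjusted p = 3.79e-10) is a 2.04-fold fall, and 0.81% of tested genes had a lower log2 change. Mylk, the kinase that switches smooth muscle myosin on, stood at 14.2, 16.2 and 16.5 TPM in control and at 9.56, 7.27 and 8.12 TPM with PDGF-DD. In counts it fell 1.98-fold (log2 change -0.99, SE 0.08, edgeR adjusted p = 7.88e-10), and 0.9% of tested genes had a lower log2 change. The fall of Mylk was smaller in TPM, with a log2 change of -0.91 in limma on log2(TPM + 0.1). In both genes PDGF-DD replicate 2 was the lowest library. Myl9, the regulatory light chain that Mylk phosphorylates, was far more abundant, at 766, 737 and 749 TPM in control and 481, 513 and 499 TPM with PDGF-DD. The gap between the groups was many times the spread within them. It fell from 344 ± 16.4 to 230 ± 10.1 CPM (log2 change -0.58, SE 0.04, edgeR adjusted p = 5.72e-11).

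The actin-binding regulators fell by unequal amounts. Lmod1, leiomodin 1, which starts new actin filaments in smooth muscle, stood at 31.4, 37.0 and 39.5 TPM in control and at 22.7, 20.9 and 22.3 TPM with PDGF-DD. Control replicate 1 was the lowest control, yet it lay above all PDGF-DD libraries. The log2 change was -0.70 (SE 0.06, edgeR adjusted p = 9.98e-10). Cnn1, calponin 1, which binds actin and slows myosin, stood at 59.1, 62.1 and 65.6 TPM in control and at 47.6, 42.3 and 46.8 TPM with PDGF-DD. Its log2 change of -0.44 (SE 0.06, edgeR adjusted p = 1.48e-06) was close to that of Acta2. Tpm2, beta-tropomyosin, stood at 552, 522 and 537 TPM in control and at 443, 476 and 450.0 TPM with PDGF-DD, a log2 change of -0.21 (SE 0.04, edgeR adjusted p = 0.000455).

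Tagln, transgelin or SM22, an actin cross-linker and early smooth muscle marker, was the second most abundant member, at 2661, 2596 and 2671 TPM in control and 2309, 2315 and 2420 TPM with PDGF-DD. The groups did not overlap, and the log2 change of -0.16 (SE 0.04, edgeR adjusted p = 0.00105) was the least negative of the 9. Smtn, smoothelin, a protein of contractile stress fibres, stood at 98.0, 111 and 113 TPM in control and at 109, 107 and 112 TPM with PDGF-DD. Its log2 change was 0.04 (95% interval -0.04 to 0.13, edgeR adjusted p = 0.48), so a fall of the size seen in Acta2 lies outside its interval.

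**Figure D2:**
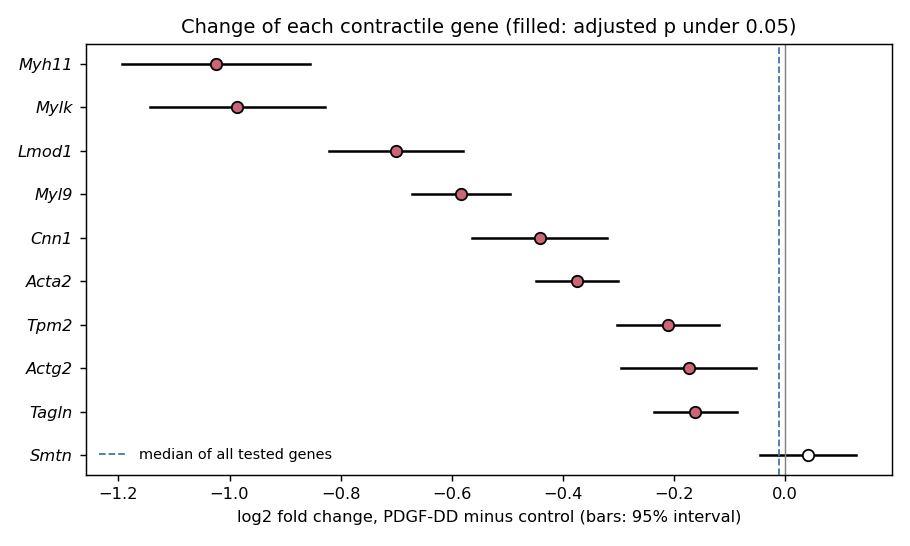
Log2 fold change (horizontal axis, PDGF-DD minus control) of the 10 contractile genes with 95% intervals from the edgeR fit; filled points have an adjusted p under 0.05 and the dashed line is the median of all tested genes. The intervals run from about 2-fold falls of Myh11 and Mylk at the top to Smtn, whose interval spans 0, at the bottom.

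Ordered by change, the members formed a graded series. The 95% interval of Mylk did not overlap that of Lmod1, the next in order, and that of Tagln did not overlap that of Smtn. All other neighbours in the order had overlapping intervals, although those of Acta2 and Tpm2 barely met (upper bound -0.301 and lower bound -0.302). The log2 ratio of Acta2 to Tpm2 CPM was 4 on average in control and 3.83 with PDGF-DD, and its ranges did not overlap. Level and change did not follow each other simply: the 3 members with the lowest TPM in control (Lmod1, Mylk and Myh11) had the 3 most negative log2 changes, while the abundant Myl9 followed next. By level the order of the members by mean TPM was the same in both groups, from Acta2 over Tagln, Myl9, Tpm2, Smtn, Actg2, Cnn1, Lmod1 and Mylk to Myh11. Actg2 and Cnn1 had overlapping ranges in control, and no other neighbours overlapped in either group. The 10 genes summed to 10489.6 ± 65.7 TPM in control and 8356 ± 103 TPM with PDGF-DD, a fall of 20.3%. Acta2 and Tagln made up between 84.7% and 86.1% of this sum in every library, so the sum says little about the other 8 genes.

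Within the control group, replicate 1 was not shifted in one direction. Relative to the group mean of log2 CPM it was higher for Acta2, Actg2, Tagln, Myl9 and Tpm2 (by 0.06 to 0.10) and lower for Cnn1, Myh11, Mylk, Lmod1 and Smtn (Lmod1 by -0.14). The transcript lengths implied by the deposited counts and FPKM were 1047 to 1940 bases for the first group, and 3262 to 5926 bases for the second except Cnn1 with 1361. Its part in the results was measured by leaving it out. Without control replicate 1, 8 members were lower, Actg2 being the member lost.

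Several members share sequence or genome positions with other genes, which matters because the strand setting of the counting is not given in the sources used here. For Tagln, 58.3% of the distinct 50-base words of its GENCODE M21 transcripts (GRCm38) also occur in transcripts of genes on the opposite strand, namely Pcsk7 and Gm48529. Pcsk7 was at 47.4 CPM in control, against 1780 CPM for Tagln, and its counts did not pass the test (adjusted p = 0.402). The share was 9.46% for Smtn (Gm11946, opposite strand), 4.56% for Mylk, 0.34% for Myh11 and 0.33% for Acta2. It was 0 for Actg2, Cnn1, Myl9, Lmod1 and Tpm2. The estimated counts of Acta2, Tagln and Myh11 were not whole numbers in any of the 6 libraries, and those of Actg2 were not whole in 5, so some of their reads were divided between genes. For Actg2 the shared 50-base words, of which there were none, do not show that division.

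Each of these muscle proteins has close relatives, many of them used by most cells. The share of the members within their family sets their fall against that of the whole family, the members included. Among actin transcripts, the members Acta2 and Actg2 together took 38.7, 37.6 and 37.7% of the summed TPM in control and 32.9, 32.3 and 32.2% with PDGF-DD. Every PDGF-DD library was thus lower than every control. Most of this share was Acta2, at a mean of 37.6% in control and 32.1% with PDGF-DD. Actg2 alone took 0.385% and 0.377%, nearly the same in both groups, of a sum that fell with Acta2. The cytoplasmic actins Actb (4910 TPM in control and 4760 with PDGF-DD) and Actg1 (5410 and 5350) did not pass the test. Their log2 changes were -0.04 and -0.01, beside -0.17 for Actg2. Tagln took 59.6 ± 0.65% of transgelin transcripts in control and 54.5 ± 0.99% with PDGF-DD (SD, n = 3 each), as its relative Tagln2 rose by a log2 change of 0.14 (SE 0.04, edgeR adjusted p = 0.00269). Myl9 took 28.2 ± 0.56% and 22.8 ± 0.59% of the regulatory light chains. Its relative Myl12b, a light chain of non-muscle myosin, also fell, from 140 ± 9.25 to 106 ± 2.76 CPM (log2 change -0.40, edgeR adjusted p = 9.62e-08).

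Smooth muscle myosin was a minor form in these cells: Myh11 took 1.2 ± 0.04% of myosin II heavy chain transcripts in control and 0.63 ± 0.11% with PDGF-DD, and the non-muscle gene Myh9 took 88.5% and 90.6%. Myh10, another non-muscle heavy chain, fell from 277 ± 15.7 to 215 ± 4.93 CPM (log2 change -0.36, edgeR adjusted p = 1.4e-07). Cnn1 took 4.1 ± 0.08% and 3.35 ± 0.21% of calponin transcripts. Tpm2 was the exception among the families, with 12.0, 11.1 and 11.5% of tropomyosin transcripts in control and 10.2, 11.3 and 10.5% with PDGF-DD, ranges that overlapped. Its relative Tpm1, whose 95% interval overlaps that of Tpm2, fell as well, from 1418 ± 24 to 1182 ± 1.43 CPM (log2 change -0.26, SE 0.04, edgeR adjusted p = 1.14e-06). Tpm1 was counted as a relative here and made up 42.1% of the family in control and 38.0% with PDGF-DD. Its own fall therefore enters the share of Tpm2. Over the 6 families the exact permutation test, two-sided, gave p = 0.1 for all but the tropomyosins (p = 0.2), or 0.12 and 0.2 after Benjamini-Hochberg adjustment, and no family can pass 0.05 with 3 against 3 libraries.

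**Figure D3:**
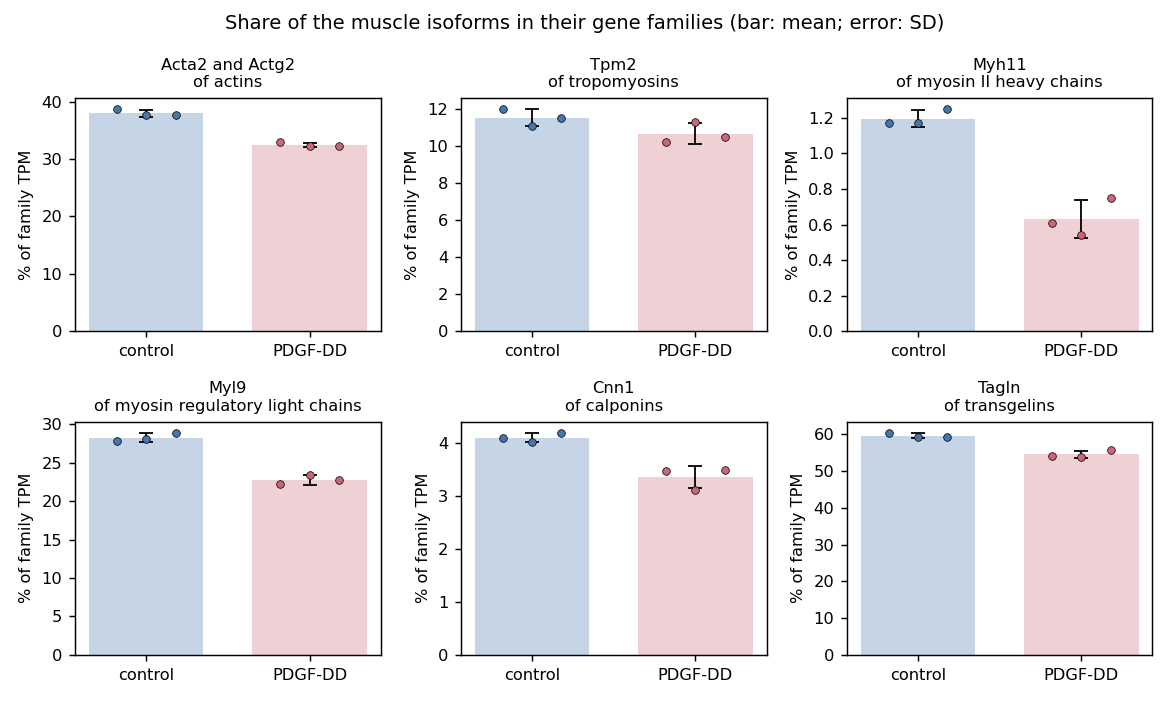
Percent of the summed TPM of a gene family (vertical axes, from 0) taken by the member or members named above each panel, in each library; points are libraries, bars means and error bars SD. The PDGF-DD points lie below the control points in 5 families, and the tropomyosin points overlap.

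The rest of the apparatus was followed with 4 further lists. Of 36 tested other genes of the smooth muscle cytoskeleton, 27 were lower (75%, beside 17.4% of all tested genes) and 3 higher (8.33%, beside 19.1%), with a median log2 change of -0.37. Pdlim3, a PDZ and LIM domain protein that binds alpha-actinin, fell from 69.2 ± 3.02 to 13.6 ± 1.06 CPM, which is more than any of the 10 members. Csrp1, a LIM protein of smooth muscle, fell from 530.1 ± 25.3 to 365 ± 4.92 CPM, and the integrin subunits Itga8 and Itga1, which tie muscle cells to their matrix, fell by log2 changes of -0.95 and -0.63. Not every abundant gene of the list fell clearly: Actn1, alpha-actinin 1, had a log2 change of -0.06 (edgeR adjusted p = 0.215), and the call for Cald1, caldesmon (log2 change -0.10, adjusted p = 0.0392), was lost under 11 of 16 alternatives with adjusted p up to 0.264. Of 21 tested relatives of the members, 8 were lower (38.1%, beside 17.4% of all tested genes) and 2 higher (9.52%, beside 19.1%). The 8 became 5 on leaving out PDGF-DD replicate 3, and 5 in limma on log2(FPKM + 1). Smtnl2, a smoothelin-like gene, fell most in that list, from 7.82 ± 1.54 to 1.9 ± 0.24 CPM (log2 change -2.04, SE 0.16, edgeR adjusted p = 1.07e-09). The calls for Myh9 and Myl12a in that list were lost under 10 and 6 of 16 alternatives.

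Of 30 tested transcription factors that drive or oppose these genes, 12 were lower (40% of the list, beside 17.4% of all tested genes) and 4 higher (13.3%, beside 19.1%). The 4 became 2 in limma on log2(TPM + 1) and on log2(TPM + 0.1). Of the central activators, Srf, Mrtfa and Myocd did not pass and Mrtfb did. Srf had 93.2 ± 6.99 CPM in the controls and 96.9 ± 3 CPM after PDGF-DD (log2 change 0.06, SE 0.05, edgeR adjusted p = 0.404) and Mrtfa at 71.7 ± 2.41 and 73.9 ± 2.09 CPM (adjusted p = 0.488). Myocd, myocardin, was barely present, at 3.18 ± 0.60 and 2.43 ± 1.02 CPM (adjusted p = 0.345), and Mrtfb fell slightly (log2 change -0.18, edgeR adjusted p = 0.00941, with values up to 0.0623 among the alternatives). Transcript levels do not show the activity of these proteins, which depends on their place in the cell. Klf4, a factor known to repress smooth muscle genes, fell from 81.2 ± 5.14 to 55.7 ± 2.36 CPM (log2 change -0.55, SE 0.05, edgeR adjusted p = 4.36e-09). The SRF partners of the ETS family that compete with myocardin went both ways, Elk3 rising by a log2 change of 0.23 and Elk1 falling by 0.31 on the log2 scale. Elk4 did not pass (log2 change -0.05, edgeR adjusted p = 0.747). The Notch effector Heyl fell from 48.5 ± 5.49 to 18.5 ± 1.56 CPM (log2 change -1.39, SE 0.08, edgeR adjusted p = 1.13e-09). Smad3, which carries TGF-beta signals to many of these promoters, rose by a log2 change of 0.31 (edgeR adjusted p = 7.61e-06).

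Of 40 tested genes that control the phosphorylation of the myosin light chain, 16 were lower (40%, beside 17.4% of all tested genes) and 5 higher (12.5%, beside 19.1%), with a median log2 change of -0.07. The 5 became 2 under upper-quartile scaling, in DESeq2, among genes averaging 5 CPM or more and with the replicate block, and 1 in limma on log2(TPM + 1) and on log2(TPM + 0.1). Leaving out control replicate 2, control replicate 3 or the PDGF-DD library 3 gave 2, and leaving out the PDGF-DD library 2 gave 3. The called genes named here include receptors and enzymes that respond to signals from outside the cell. Gucy1a1 and Gucy1b1, the subunits of the nitric oxide receptor that relaxes smooth muscle, fell by 1.46 and 0.46 on the log2 scale, and Tbxa2r, the receptor of the constrictor thromboxane, fell from 13.6 ± 1.14 to 4.75 ± 0.19 CPM. Against this direction Pak1, a kinase that acts on myosin and the cytoskeleton, rose from 17.9 ± 1.3 to 38.0 ± 1.38 CPM (log2 change 1.08, SE 0.07, edgeR adjusted p = 1.35e-12).

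**Figure D4:**
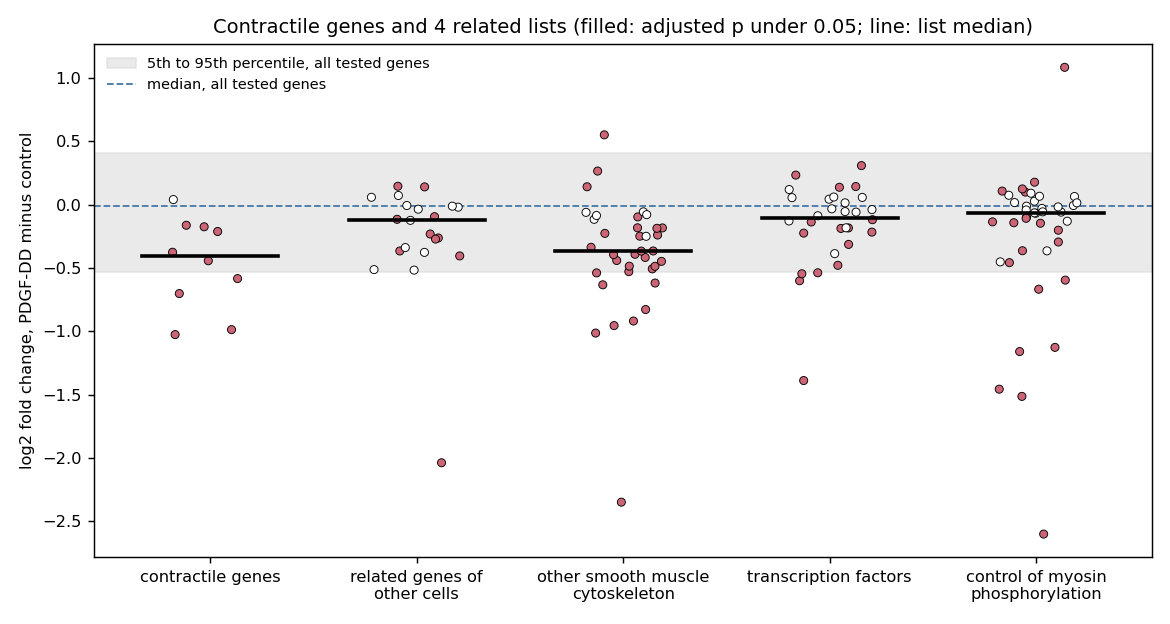
Log2 fold change (vertical axis, PDGF-DD minus control) of each tested gene in the contractile set and 4 related lists; filled points have an adjusted p under 0.05, thick lines are list medians, the grey band is the 5th to 95th percentile of all tested genes (-0.53 to 0.41) and sideways scatter is random. The contractile and other smooth muscle cytoskeleton lists have medians of -0.41 and -0.37, below those of the other 3 lists.

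Markers of other cells that could carry contractile genes were read in the same libraries. Of 7 tested genes of pericytes and vascular smooth muscle, 4 were lower (57.1%, beside 17.4% of all tested genes) and 1 higher (14.3%, beside 19.1%). The summed level of the 10 genes of that list ran from 505 to 566 TPM in control and from 419.8 to 440.0 TPM with PDGF-DD. Most of this sum was Pdgfrb, which fibroblasts express too and which fell by 0.40 on the log2 scale, followed by Mcam (87.3 and 82 TPM, adjusted p = 0.141). Notch3 (48.3 TPM in control, 24.5 with PDGF-DD), Ndufa4l2 (20.5 and 16.5 TPM) and Rgs5 (3.1 and 2.19 TPM) were also lower, and Cspg4 (30.9 and 36.3 TPM) was higher. The remaining Kcnj8, Abcc9, Vtn and Higd1b were each under 1 TPM on average in both groups. Of 9 tested cardiomyocyte genes, 3 were lower (33.3%) and none higher. The list of 14 summed to between 320.0 and 345 TPM in control and between 229.7 and 259.5 TPM with PDGF-DD. Nearly all of that was Tnnt2 (314 and 228 TPM), which fell by 0.45 on the log2 scale. The other 13 genes each averaged under 4 TPM, with Myh6 at 2.2 and 1.34 TPM. Skeletal muscle markers summed to between 3.68 and 8.66 TPM over all libraries, and 1 of 4 tested was lower. In the endothelial list 1 of 8 tested genes was lower (summed TPM 179 to 199 in control, 175 to 177 with PDGF-DD), in the leukocyte list 1 of 7 (358 to 380.4, and 313 to 330.4), in the epicardial list 1 of 5 (58.9 to 65.6, and 54.1 to 56.6) and in the Schwann cell list 0 of 4 (9.7 to 11.1, and 9.01 to 9.3), with none higher. The lower genes were 25% of the tested skeletal muscle markers, 12.5% of the endothelial, 14.3% of the leukocyte and 20% of the epicardial ones. Over all tested genes, 17.4% were lower and 19.1% higher. Between the marker lists and the lists above, Mcam, Rgs5, Tcf21, Pln and Acta1 are shared. The summed level of each of these marker lists, fibroblast markers included, was lower with PDGF-DD without overlap. A few genes carry most of some sums, such as Lyz2 in the leukocyte list (315 TPM in control, 272 with PDGF-DD), its only called gene. Among single tested genes, 23.5% were lower without overlap in CPM. The part of other cells in the fall of the contractile genes was not tested.

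The genes whose profile was most like that of the contractile set were found among 7159 other genes averaging 20 CPM or more, by Pearson correlation over the 6 libraries with the mean centred log2 CPM of the 10 members. Sash1, Adamts5, Trp53inp1, Tmem64, Notch3 and Reck came first, with r between 0.997 and 0.999. With 6 points in 2 groups such a value mostly reflects the difference between the groups, and the points share that contrast. Notch3, a Notch receptor of mural cells, fell from 169 ± 8.21 to 86.6 ± 1.57 CPM, and Adamts5, a protease of matrix proteoglycans, from 414 ± 10.5 to 265 ± 10.6 CPM. Each member is part of the mean profile, which raises its own r with it. With that limit, r ran from 0.839 (Tpm2) to 0.992 (Cnn1) for 9 members and was -0.39 for Smtn.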

How the data were processed

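Poly(A) RNA from 6 samples of mouse cardiac fibroblasts was sequenced on nanoball arrays, per the labels' protocols. The submitters' processing notes list RSEM 1.2.12, HISAT2 2.0.4, DESeq2 1.4.5 and Bowtie2 2.2.5 with no roles, and build mm9. For annotation, strand and read filters the setting is not given in the sources used here. The authors deposited 1 table per library. Its estimated counts carry no normalization, per the file headers, and 31.9% to 32.7% are fractional. The authors scaled the deposited FPKM to transcript length and depth, and the deposited TPM to one fixed total per library.

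Counts were rounded, filtered with filterByExpr (13270 genes left) and scaled with TMM factors (0.995 to 1.01), and the groups were compared with edgeR 4.0.16 (quasi-likelihood F test, robust, two-sided, R 4.3.3) over all genes. A gene was called at a Benjamini-Hochberg adjusted p under 0.05. SE is the size of the log2 change over the root of F, and 95% intervals use the degrees of freedom of the fit. The method was tested on simulated counts. Alternatives were other scalings, filters, DESeq2 1.42.0, limma 3.58.1 on log2 TPM or FPKM, a replicate block and leaving out each library. Depth leaves little counting error above a few CPM.

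The members, the related lists and the marker lists were chosen with earlier results of these data known, so no list was tested as a set. Named genes are the 10 members, from each pathway list up to 4 called genes by smallest p, the 2 most abundant genes of every list, called transcription factors, genes of the families, and the 6 genes most like the members. Genes named outside that rule (Pdgfd, Pcsk7, Pdgfra, Ndufa4l2, Rgs5, Cspg4, Kcnj8, Abcc9, Vtn, Higd1b, Myh6, Myocd, Srf, Mrtfa and Elk4) were chosen after their values were seen. Symbols matched the files for all list genes except 2 skeletal muscle markers, Myh4 and Myog. Some genes that the rule names are not reported here. No protein sequence was used here.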

Additional observations from a re-analysis of the deposited data

How the results depend on the processing

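The counts of members that were lower (9) and higher (0) were recomputed under 16 alternatives. There were 9 lower members under all scalings, filters and the limma settings, 8 in DESeq2 and between 8 and 9 when 1 library was left out, and 0 higher members throughout. Acta2, Tagln, Cnn1, Myh11, Myl9, Mylk, Lmod1 and Tpm2 kept their direction and their call under all 16 alternatives, and Smtn passed under none. The fall of Myh11 ranged from -1.11 to -0.78 and that of Mylk from -1.07 to -0.75 on the log2 scale, the smallest falls being those of limma on log2(FPKM + 1). Over all genes, between 2147 and 2643 were higher and between 1729 and 2374 lower when 1 library was left out. The number of relatives of the members that were lower (8) was 5 in limma on log2(FPKM + 1) and between 5 and 9 when 1 library was left out, with 5 without PDGF-DD replicate 3. The number of higher transcription factors (4) was 2 in limma on log2(TPM + 1) and 2 on log2(TPM + 0.1). Of genes that control light chain phosphorylation, 5 were higher, but 2 under upper-quartile scaling, 2 in DESeq2, 2 with a mean of at least 5 CPM, 1 in limma on log2(TPM + 1), 1 on log2(TPM + 0.1) and 2 with the replicate block. When 1 library was left out this number was between 2 and 6, namely 2 for the control replicates 2 and 3 and for PDGF-DD replicate 3, and 3 for PDGF-DD replicate 2. In CPM in place of TPM, the difference in share was -0.44 percentage points for Myh11 (-0.57 in TPM) and -4.69 for Myl9 (-5.45 in TPM). CPM is not scaled for transcript length, so the longer genes of a family weigh more in these shares than in TPM. For 58 other named genes, 860 of 921 values kept the call or its absence, 54 lost the call and 7 gained it. No value turned direction where the gene passed in the main fit or in the alternative. Changes near 0 that passed in neither could switch sign, as that of Actg1 did (log2 change -0.026 to 0.011).

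Groups share replicate numbers, but same-numbered libraries did not deviate together (correlations of deviations from the group means of -0.32, -0.36 and 0.00 over 10459 genes), and no library correlated best with its own number. With the replicate block, 9 members were lower and 0 higher, and over all genes 2269 were higher and 2076 lower.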

Other observations

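The ratio of the deposited counts to the deposited FPKM gives the mean transcript length that the authors' estimate assigned to a gene in each library, up to a common factor. With the median gene set to the same value in every library, this implied length of Mylk was 100.4, 100.2 and 99.4% of its control mean in the control libraries and 93.5, 92.7 and 97.2% with PDGF-DD. It fell by 5.5%. The groups did not overlap, which held for 42.2% of genes, among them Actg2, Tagln, Myl9 and Lmod1 with changes of 0.2%, and 0.82% of 8859 genes with enough counts had as large a change in either direction. Mylk encodes several products, among them longer and shorter forms of the kinase and, from an internal promoter, the short protein telokin. The tables give no values per transcript, so which transcripts moved was not tested. For Myh11 the implied length ranged from 96.6 to 107.6% with PDGF-DD and overlapped the controls, and for the other 8 members the change was at most 1.2%.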
